A study of Sus scrofa with 13 samples.

Results

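RGN, GULO, ARG1, RENBP, SLC19A3 and BEST2 are 6 of the 28232 genes in a table of messenger RNA counts from pig preimplantation embryos, and each was found there once, by its symbol. They were chosen by their measured counts, absent at the 4-cell stage and high in blastocysts, and grouped as liver-type genes, so their change between those stages is described here and not tested. The embryos were IVF 4-cell embryos, IVF blastocysts and IVF hatched blastocysts (3 libraries each), made by in vitro fertilisation, and in vivo hatched blastocysts and in vivo blastocysts, which developed in the sow (2 libraries each). Blastocysts are embryos with a cavity filled by fluid, and hatching is their escape from the surrounding zona pellucida. All libraries were made from pooled embryos, with no treatment or genotype given, and no in vivo 4-cell group was analysed here. The size of the pools, the breed, the culture medium, and the age in days and sex of the embryos are not stated in the labels, nor whether libraries of a group came from separate pools or days. A p-value here thus weighs a difference only against the scatter of these libraries, and that scatter may be technical.

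RGN and GULO act one after the other at the end of vitamin C synthesis: RGN (regucalcin) closes gulonate into a lactone ring, as shown in mice, and GULO (gulonolactone oxidase) makes ascorbate from that lactone. Pigs have a working GULO and make vitamin C in the liver, whereas humans and guinea pigs have lost the enzyme. ARG1 (arginase 1) splits arginine into ornithine and urea in the cytosol of liver cells and ends the urea cycle. RENBP, first found in pig kidney as a protein that binds renin, interconverts N-acetylglucosamine and N-acetylmannosamine, the sugar from which sialic acid is built. SLC19A3 carries thiamine (vitamin B1) across the cell membrane. BEST2 is a bestrophin, an anion channel opened by calcium and known from secretory epithelia of the eye and colon in mice. The pig embryo turns on most of its own genes at about the 4-cell stage, and the blastocyst that follows consists of an outer epithelium, the trophectoderm, around the epiblast and the hypoblast.

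Total counts lay between 33259311 and 39273867 per library, and 14221 to 16735 genes had a count. Libraries of the same group differed by far more than sampling noise in each of 11 pairs (lowest chi-square per degree of freedom 72.5), and each was kept as a separate library. Levels are in CPM, the count divided by its library's total on a scale that is the same for all libraries, and ± gives the SD over the libraries of a group beside a level, or the standard error (SE) beside a fitted log2 difference. One IVF hatched library stood apart on the Y chromosome. EIF1AY, a Y-linked gene picked after its values were seen, had 53.9, 0 and 8.45 CPM in IVF hatched libraries 1 to 3 and at least 44.8 CPM in each IVF blastocyst library. It had 51.0 CPM in the unnumbered in vivo hatched library, 25.0 CPM in in vivo hatched library 2 and 35.9 and 55.1 CPM in the in vivo blastocysts. RGN and RENBP lie on the X chromosome, so their results for IVF against in vivo hatched blastocysts and for hatching after IVF are also given without IVF hatched library 2, and the difference of hatching changes without library 2 or 3.

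The word liver was checked against defining markers of liver cells, and these were largely absent. AFP and TTR, secreted by the fetal liver and by the visceral endoderm of the yolk sac, had 0 counts in all 13 libraries. ALB (albumin) had 5.50 ± 2.78 CPM in 4-cell embryos and 0 counts in every later library. Of 31 other genes for liver enzymes, between 9 and 11 averaged at least 1 CPM in a later group, and their summed level was 44.0 to 67.5 CPM in the later libraries. OTC and CPS1, which carry the urea cycle in liver mitochondria beside ARG1, were at or near 0: OTC had counts only in the in vivo hatched group (0.171 ± 0.242 CPM), and CPS1 averaged 0.873 to 3.49 CPM in the later groups. HNF4A, a transcription factor of liver and visceral endoderm, averaged 1.43 ± 1.15 CPM in IVF blastocysts, 1.60 ± 0.418 CPM in IVF hatched blastocysts, 7.10 ± 2.07 CPM in in vivo blastocysts and 18.0 ± 17.9 CPM in in vivo hatched blastocysts. Some apolipoproteins, the carriers of lipid in plasma, were present: APOA1, made in liver, gut and visceral endoderm, averaged 413 to 6514 CPM in the later groups. APOE averaged 44.9 to 487 CPM, APOA2 21.3 to 64.2 CPM and APOC3 3.91 to 72.5 CPM there. In 4-cell embryos APOA1 averaged 0.198 CPM and APOA2 and APOC3 had 0 counts, so these also appeared after that stage. APOE was already at 51.6 CPM in 4-cell embryos. Other apolipoproteins were not present later: APOB and APOH had 0 counts in each later group, and APOA4 averaged at most 0.291 CPM. FBP1, an enzyme of gluconeogenesis, averaged 35.3 CPM in in vivo hatched blastocysts and at most 2.78 CPM in the other later groups. The data show 4 enzymes, 1 vitamin carrier and 1 channel at high levels in embryos where most other liver enzymes looked at were under 1 CPM, and the 6 genes are called by name below.

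All 6 genes had 0 counts in each of the 3 4-cell libraries, where a count of 0 allows a level of up to 0.0888 to 0.0902 CPM (3 counts in a library). Intervals and floors of this kind cover counting error only. In every blastocyst and hatched library all 6 were above 100 CPM. Against the 4-cell floor, the group means were at least 1930-fold higher (RENBP in in vivo hatched blastocysts) to at least 47096-fold higher (RGN in in vivo blastocysts). In all, 8874 genes had no count in any 4-cell library, 4220 of these had a count later, and 11 of these averaged at least 100 CPM in each of the 4 later groups. The 6 genes are among these 11, as their choice made likely, and the others are ABCB6, CST6, DSG2, KRT18 and PKP3, named after their values were seen. KRT18, DSG2 and PKP3 encode a keratin and desmosome proteins of epithelia.

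**Figure D1:**
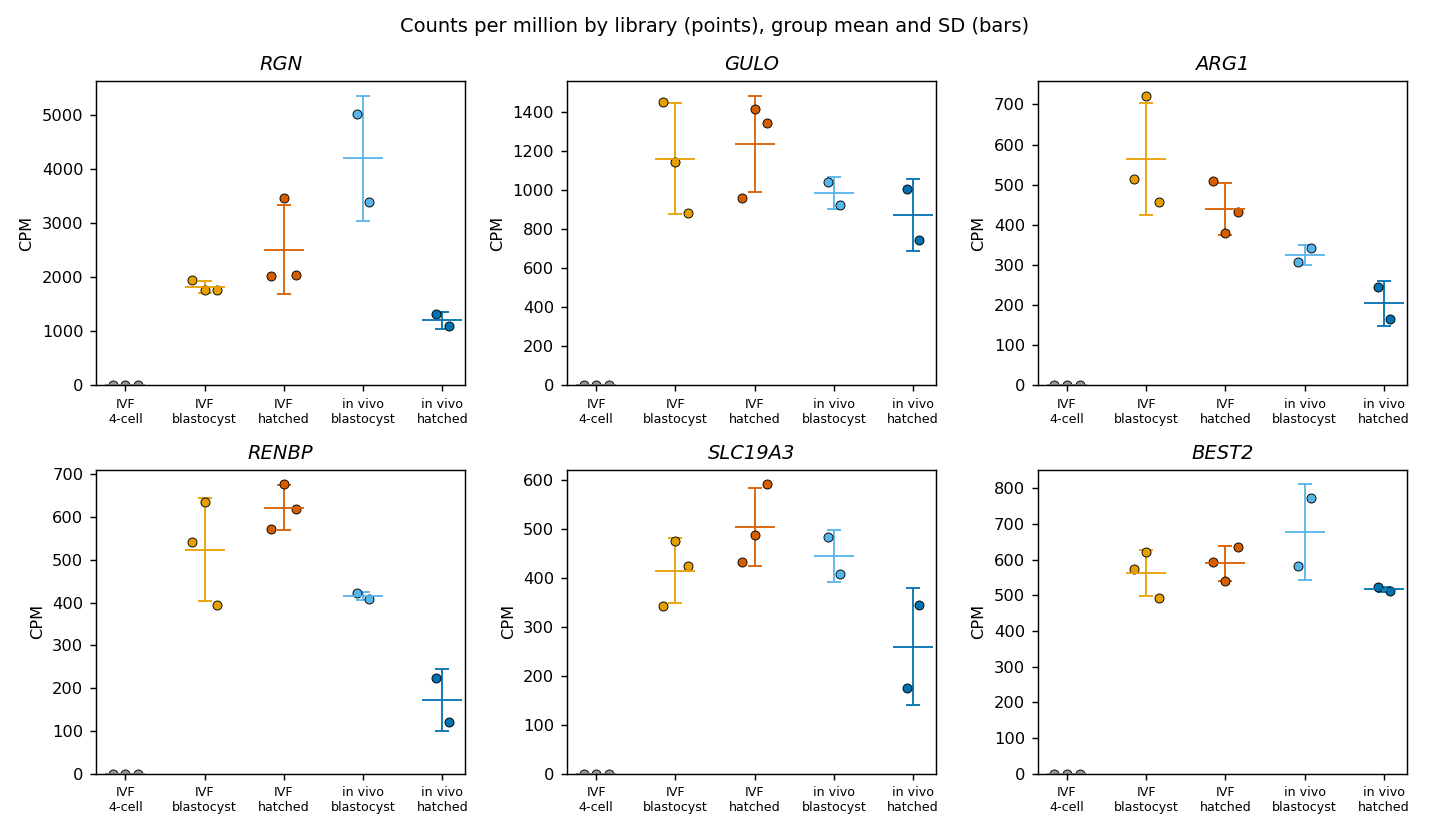
Level in CPM (y axis, linear, from 0) of RGN, GULO, ARG1, RENBP, SLC19A3 and BEST2 in each library (points) of the 5 groups (x axis), with the group mean (horizontal bar) and SD (error bar). All 4-cell points lie at 0, and RGN is highest in in vivo blastocysts and lowest in in vivo hatched blastocysts among the later groups.

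RGN, the enzyme before GULO, took the most counts of the 6 in each later group. It had 1951, 1765 and 1754 CPM in the IVF blastocyst libraries and 2026, 3468 and 2042 CPM in the IVF hatched libraries. It had 5029.9 and 3387 CPM in the in vivo blastocysts, and 1312 CPM in the unnumbered in vivo hatched library and 1091 CPM in library 2. In order of means, in vivo blastocysts came first, then IVF hatched blastocysts, IVF blastocysts and in vivo hatched blastocysts. The first pair in this order overlapped through IVF hatched library 2, the library without EIF1AY counts, and the ranges of the other neighbours were apart.

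GULO, which catalyses the last step of vitamin C synthesis, had 1451, 1144 and 883 CPM in IVF blastocysts and 956, 1415 and 1341 CPM in IVF hatched blastocysts. The in vivo blastocysts had 1042 and 924 CPM, and the in vivo hatched blastocysts 1002 CPM in the unnumbered library and 743 CPM in library 2. The ranges of all neighbours in the order of means overlapped, so that GULO had no group clearly above or below the next. ARG1 had 515, 722 and 457 CPM in IVF blastocysts and 508, 379.5 and 432 CPM in IVF hatched blastocysts. It had 307 and 343 CPM in in vivo blastocysts, 243 CPM in the unnumbered in vivo hatched library and 164 CPM in library 2. Every IVF library was thus above every in vivo library for ARG1, and the order of means was IVF blastocysts, IVF hatched blastocysts, in vivo blastocysts and in vivo hatched blastocysts, with an overlap between the IVF groups.

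RENBP had 542, 634 and 395 CPM in IVF blastocysts and 571, 677 and 618 CPM in IVF hatched blastocysts. It had 423 and 408 CPM in in vivo blastocysts, 223 CPM in the unnumbered in vivo hatched library and 122 CPM in library 2. In vivo hatched blastocysts were below all other later libraries, and the 3 other groups overlapped as neighbours. SLC19A3, the thiamine carrier, had 343.3, 475 and 424 CPM in IVF blastocysts and 433, 488 and 591 CPM in IVF hatched blastocysts. It had 482 and 407 CPM in in vivo blastocysts, 175 CPM in the unnumbered in vivo hatched library and 343.7 CPM in library 2. The means ran from IVF hatched over in vivo blastocysts and IVF blastocysts to in vivo hatched blastocysts, and all neighbours in this order overlapped, the last pair by less than 1 CPM.

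BEST2, the anion channel, had the group means closest to each other. It had 572.5, 621 and 494 CPM in IVF blastocysts, 592, 539 and 636 CPM in IVF hatched blastocysts, 581 and 772 CPM in in vivo blastocysts, and 522 CPM (unnumbered library) and 512 CPM (library 2) in in vivo hatched blastocysts. The ranges of neighbours overlapped throughout. These means lay between 517 and 676 CPM.

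Levels were compared between genes in FPKM, the deposited values per kilobase of transcript and library size, of which only library 2 was used for in vivo hatched blastocysts. On this scale RGN averaged 1127 ± 68.0 FPKM in IVF blastocysts, 1551 ± 516 FPKM in IVF hatched blastocysts and 2601 ± 718 FPKM in in vivo blastocysts, and had 671 FPKM in in vivo hatched library 2. Among all genes this placed it 60th, 31st, 17th and 84th. GULO came next in each of these groups, at 579 ± 146, 619 ± 125 and 487 ± 32.2 FPKM on average and 374 FPKM in in vivo hatched library 2. Below them the order in in vivo hatched library 2 differed from that in the other groups. RENBP and ARG1 were ahead of BEST2 and SLC19A3 in the IVF groups and in in vivo blastocysts, where RENBP averaged 307 to 460 FPKM and SLC19A3 155 to 188 FPKM. In in vivo hatched library 2, BEST2 (148 FPKM) and SLC19A3 (128 FPKM) were ahead of ARG1 (98.6 FPKM) and RENBP (90.0 FPKM). This order rests on library 2 alone. In CPM, the unnumbered in vivo hatched library had less SLC19A3 (175, against 343.7 CPM in library 2). It had more ARG1 (243 against 164 CPM) and RENBP (223 against 122 CPM), so its order may differ. RGN exceeded GULO per length by a factor of 2.01 ± 0.421 in IVF blastocysts, 2.50 ± 0.566 in IVF hatched blastocysts, 5.30 ± 1.12 in in vivo blastocysts and 1.80 in in vivo hatched library 2. Together the 6 genes took 0.505% of the counts of a library on average in IVF blastocysts, 0.590% in IVF hatched blastocysts, 0.705% in in vivo blastocysts and 0.323% in in vivo hatched blastocysts. In pools of whole embryos, fewer cells of a type and less RNA per cell cannot be told apart in any of these levels.

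Not all close relatives of ARG1, SLC19A3 and BEST2 shared their patterns. ARG2, the mitochondrial arginase, was already present in 4-cell embryos at 41.2 ± 14.2 FPKM, where ARG1 was at 0. It averaged 21.4 ± 9.53 FPKM in IVF blastocysts, 23.3 ± 1.81 FPKM in IVF hatched blastocysts and 58.3 ± 8.01 FPKM in in vivo blastocysts, and had 82.5 FPKM in in vivo hatched library 2. ARG1 was thus far above ARG2 in the IVF groups, at 370.2 ± 81.4 FPKM in IVF blastocysts, and close to it in in vivo hatched library 2. The unnumbered in vivo hatched library had more ARG1 than library 2 (243 against 164 CPM), so this closeness may not hold there. SLC19A1, the folate carrier of the family, averaged 0.108 FPKM in 4-cell embryos, 28.6 FPKM in IVF blastocysts, 33.2 FPKM in IVF hatched blastocysts and 16.8 FPKM in in vivo blastocysts, and had 3.96 FPKM in in vivo hatched library 2. SLC19A1 was thus much like SLC19A3 in pattern, at lower levels. Both were at or near 0 in 4-cell embryos, highest in IVF hatched blastocysts and lowest later in in vivo hatched library 2. SLC19A2, the other thiamine carrier, had 20.9 ± 1.95 FPKM in 4-cell embryos and stayed between 12.9 and 31.5 FPKM later, below SLC19A3 in every later group. The other bestrophins were near 0: BEST1 averaged at most 0.122 FPKM, BEST4 at most 0.176 FPKM, and BEST3 was at 0 but for an average of 0.00417 FPKM in IVF hatched blastocysts.

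**Figure D2:**
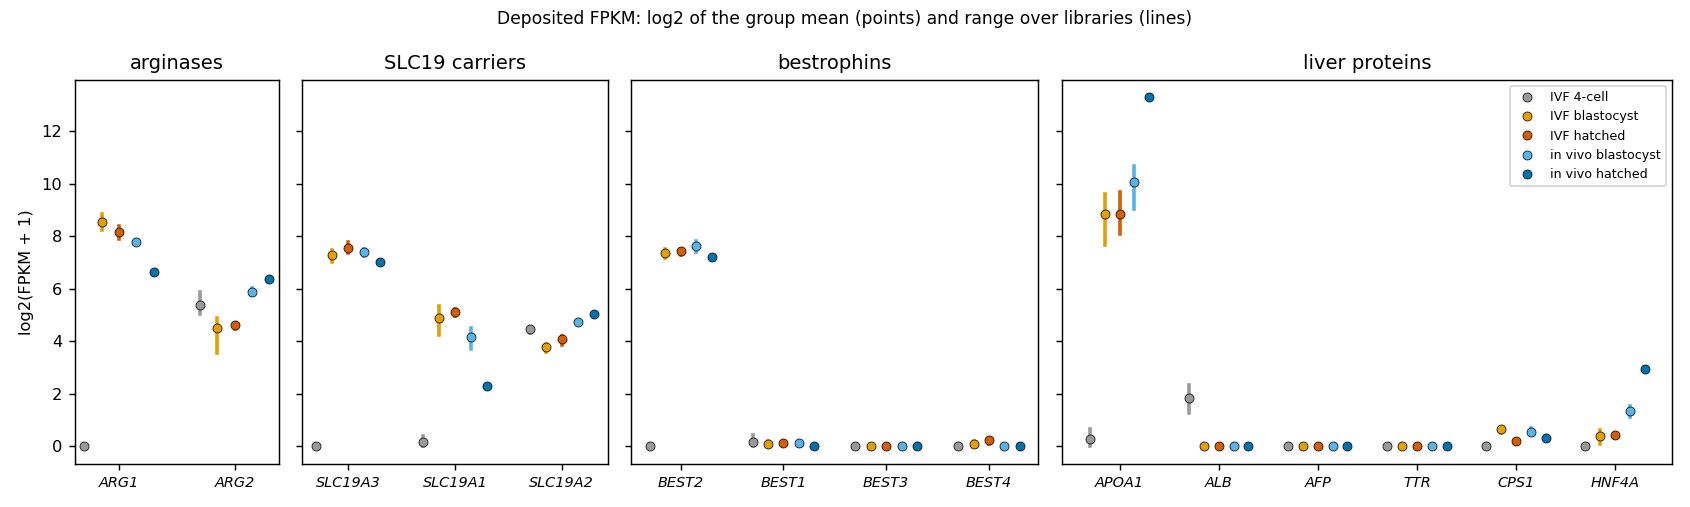
Deposited FPKM, as log2(FPKM + 1) (y axis), of the arginases, the SLC19 carriers, the bestrophins and 6 liver proteins (x axis); points are the group mean and lines the range over libraries of the 5 groups, with library 2 alone for in vivo hatched blastocysts. ARG2 and SLC19A2 are present in 4-cell embryos where ARG1 and SLC19A3 are at 0, BEST2 is the only one of the 4 bestrophins drawn above 1 FPKM on average, and AFP and TTR are at 0 in all groups.

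Changes among the 10 later libraries were tested over 15528 genes with edgeR's quasi-likelihood test and Benjamini-Hochberg adjustment, and a gene was called at an adjusted p under 0.05. The comparisons share libraries with each other and with the choice of the genes. Only in vivo hatching compares no IVF group, and its scatter was still estimated with the IVF libraries in the shared fit. The first question was whether IVF blastocysts differ from in vivo blastocysts. Only RGN was called, lower in IVF blastocysts at 1823 ± 110.5 CPM, against 4209 ± 1162 CPM in in vivo blastocysts. Its log2 fold change was -1.26 ± 0.30 (adjusted p = 0.0229). That is 1 of 6 genes, beside 10.8% of all genes called in either direction (6.09% higher, 4.74% lower), and the median log2 fold change was 0.03 for the 6 genes and 0.05 for all genes. The RGN call depended on single libraries: without in vivo blastocyst library 1, the higher of the 2, the change was -0.82 (adjusted p = 0.232), and without IVF blastocyst library 1, 2 or 3 it was -1.31, -1.24 or -1.22 (adjusted p = 0.0597, 0.0715 and 0.0650). ARG1 was 0.77 ± 0.26 higher in IVF blastocysts on the log2 scale, with ranges apart, but was not called (adjusted p = 0.0819), whereas DESeq2 called it (adjusted p = 0.0319). RENBP (0.30 ± 0.29), GULO (0.20 ± 0.27), SLC19A3 (-0.14 ± 0.27) and BEST2 (-0.28 ± 0.18) were not called, with adjusted p between 0.339 and 0.789. Their 95% intervals ran from -0.74 at the lowest, for SLC19A3, to 0.94 at the highest, for RENBP.

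In hatched blastocysts, 4 of the 6 genes were called higher after IVF, beside 6.96% of all genes called higher and 4.88% lower, 11.8% in either direction. RENBP had 622 ± 52.7 CPM in IVF hatched blastocysts and 172 ± 71.9 CPM in in vivo hatched blastocysts, a log2 fold change of 1.92 ± 0.31 (adjusted p = 0.00330). It was called whichever single library was left out, with changes of up to 2.49, and without IVF hatched library 2 it was 1.80 (adjusted p = 0.0114). ARG1 averaged 440.1 ± 64.8 CPM in IVF hatched blastocysts, against 204 ± 55.8 CPM in in vivo hatched blastocysts (1.18 ± 0.27, adjusted p = 0.0164). Its call was lost without IVF hatched library 1 (1.07, adjusted p = 0.0537) and without in vivo hatched library 2 (0.87, adjusted p = 0.148).

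SLC19A3 had 504 ± 80.2 CPM in IVF hatched blastocysts, against 259 ± 119 CPM in in vivo hatched blastocysts (1.05 ± 0.28, adjusted p = 0.0336). The call was lost without any single IVF hatched library (1.16, 1.02 and 0.96 without library 1, 2 and 3, adjusted p = 0.0525, 0.0781 and 0.0982) and without the unnumbered in vivo library (0.68, adjusted p = 0.149). RGN was at 2512 ± 828 CPM in IVF hatched blastocysts and 1201 ± 156 CPM in in vivo hatched blastocysts (1.16 ± 0.31, adjusted p = 0.0352). For RGN the call was lost without IVF hatched library 2 (0.78, adjusted p = 0.0999), without the unnumbered in vivo library (1.35, adjusted p = 0.0526) and without in vivo library 2 (0.97, adjusted p = 0.230). GULO (0.58 ± 0.28, adjusted p = 0.199, 95% interval -0.02 to 1.19) and BEST2 (0.27 ± 0.18, adjusted p = 0.376, interval -0.14 to 0.67) were not called, although the BEST2 ranges were apart. The median over the 6 genes was 1.11, and over all genes 0.04.

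**Figure D3:**
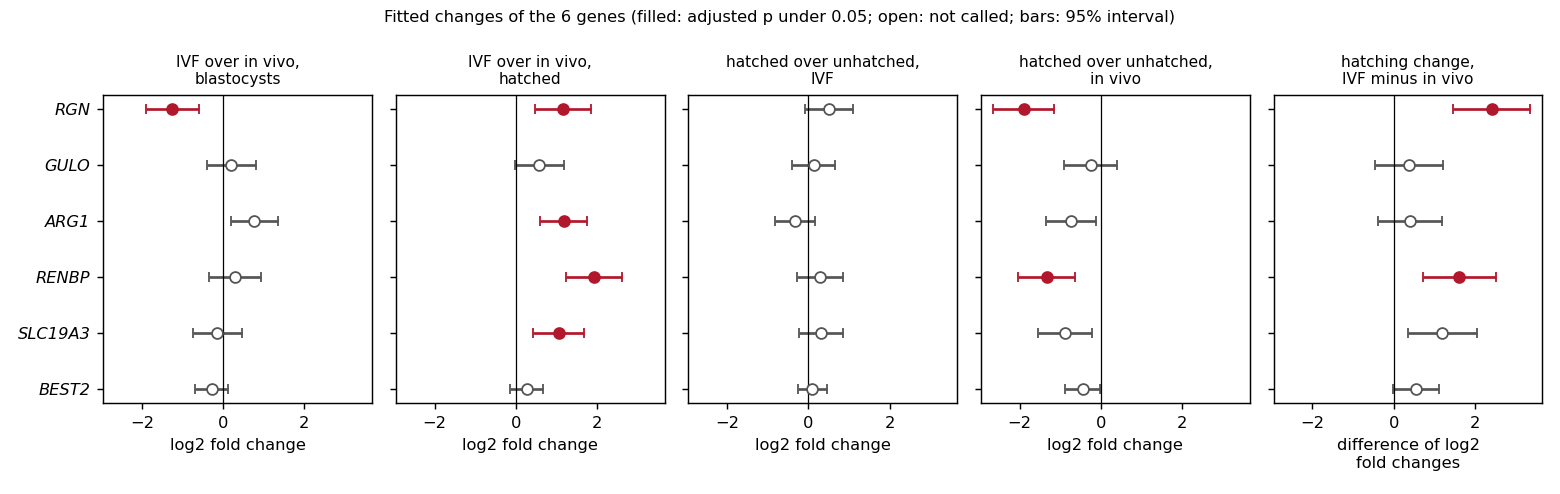
Fitted log2 fold change (x axis) of the 6 genes (y axis) in 5 comparisons among the blastocyst and hatched libraries, with 95% intervals; filled points have an edgeR adjusted p under 0.05. The RGN point lies below 0 for IVF over in vivo blastocysts and above 0 for the hatched ones, and no point is filled for hatching after IVF.

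The next question was what changes with hatching in vivo, a comparison of in vivo groups only. The IVF libraries were still part of its fit, in the estimates of scatter and scaling and in the filter on low counts. RGN and RENBP were lower in hatched blastocysts, 2 of 6 genes, beside 7.39% of all genes called lower and 6.96% higher, 14.3% in either direction. RGN had 1201 ± 156 CPM in in vivo hatched blastocysts, against 4209 ± 1162 CPM in in vivo blastocysts, a log2 fold change of -1.90 ± 0.34 (adjusted p = 0.00524). It was called whichever of the 4 libraries was left out, with changes from -2.23 to -1.44. RENBP had 172 ± 71.9 CPM in hatched in vivo blastocysts, against 408 and 423 CPM in the unhatched libraries (-1.34 ± 0.32, adjusted p = 0.0195). With the in vivo groups fitted alone, RENBP was at -1.31 and was not called (edgeR, adjusted p = 0.0863). The RENBP call was lost without in vivo blastocyst library 1 (-1.18, adjusted p = 0.0970) and without in vivo hatched library 2 (-0.92, adjusted p = 0.105).

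SLC19A3 (-0.88 ± 0.30, adjusted p = 0.0723), ARG1 (-0.74 ± 0.28, adjusted p = 0.102) and BEST2 (-0.45 ± 0.20, adjusted p = 0.152) were not called, although the ranges of hatched and unhatched libraries were apart for each. GULO was not called at -0.25 ± 0.30 (adjusted p = 0.621), and its ranges overlapped. ARG1 was called without the unnumbered hatched library (-1.11, adjusted p = 0.0409), and SLC19A3 without hatched library 2 (-1.37, adjusted p = 0.0242). SLC19A3 was also called by DESeq2 (-0.87, adjusted p = 0.0400) and with no filter on low counts (edgeR, -0.88, adjusted p = 0.0185). The median over the 6 genes was -0.81, and over all genes -0.01.

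After IVF, hatching changed none of the 6 genes by this test, beside 0.0451% of all genes called (7 of 15528, all lower in hatched blastocysts). None of the 6 had an unadjusted p under 0.05 either, and DESeq2 called none of them. Only 594 of the 15528 genes had such an unadjusted p in edgeR, so this does not set the 6 genes apart. RGN was at 2512 ± 828 CPM in IVF hatched blastocysts, against 1823 ± 110.5 CPM in IVF blastocysts (0.51 ± 0.27, adjusted p = 1 in edgeR), with ranges apart. Without IVF hatched library 2 the RGN change was 0.16 and the RENBP change 0.19. ARG1 was at -0.33 ± 0.23, SLC19A3 at 0.31 ± 0.24, RENBP at 0.28 ± 0.26, GULO at 0.13 ± 0.24 and BEST2 at 0.10 ± 0.16. The 95% intervals, each for 1 gene alone, reached from -0.83 for ARG1 to 1.10 for RGN. They rest on the scatter of these libraries and are no joint bound over the 6 genes.

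The difference between the hatching changes, IVF minus in vivo, was tested in the same fit. RGN and RENBP were called with a higher change after IVF, 2 of 6 genes, beside 2.79% of all genes called in that direction and 1.93% in the other, 4.71% in all. For RGN the difference was 2.41 ± 0.43 on the log2 scale (adjusted p = 0.0140), and it was called in each of 10 fits with 1 library left out (1.96 to 2.74). Without IVF hatched library 2 it was 2.04 (adjusted p = 0.0217), and without library 3 it was 2.57 (adjusted p = 0.0219). For RENBP it was 1.62 ± 0.41 (adjusted p = 0.0484), and this call was lost in 9 of the 10 fits, all but the one without the unnumbered in vivo hatched library, with values of 1.20 to 1.79. Without IVF hatched library 2 it was 1.497 (adjusted p = 0.105), and without library 3 it was 1.65 (adjusted p = 0.0818). SLC19A3 (1.20 ± 0.39, adjusted p = 0.101), BEST2 (0.55 ± 0.26, 0.239), ARG1 (0.41 ± 0.36, 0.550) and GULO (0.38 ± 0.39, 0.611) were not called. For SLC19A3 the difference was called without in vivo hatched library 2 (1.69, adjusted p = 0.0378), by DESeq2 (1.18, adjusted p = 0.0463) and with no filter on low counts (edgeR, 1.20, adjusted p = 0.0193).

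Both genes with a called difference lie on the X chromosome, and values of the other X-linked genes are given beside them, with no test of X-linked against other genes. Of 561 other X-linked genes tested, 11.2% were called lower with hatching in vivo and 4.28% higher, beside 7.39% and 6.96% of all genes, at a median log2 fold change of -0.35, while the median of all genes was -0.01. For the difference of hatching changes their median was 0.37, against -0.0049 for all genes, with 4.63% called higher and 0.891% lower, beside 2.79% and 1.93% of all genes. In IVF against in vivo hatched blastocysts the X-linked median was 0.32, against 0.04 for all genes, with 8.91% called higher and 3.39% lower, beside 6.96% and 4.88% of all genes. In IVF against in vivo blastocysts, where RGN was called lower, the X-linked median was -0.07, against 0.05 for all genes. There 2.85% of the X-linked genes were called higher and 6.06% lower, beside 6.09% and 4.74% of all genes. The part of the sex of the embryos in the RGN and RENBP results was not tested.

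Summed levels of cell type markers were compared over the same libraries. Of all genes, 6.96% were called higher and 4.88% lower in IVF against in vivo hatched blastocysts, the background for the marker counts in that comparison. Hypoblast markers, of which 18 of 21 had a count in IVF hatched and 19 of 21 in in vivo hatched blastocysts, summed to 1772 to 2269 CPM in IVF hatched and to 5616 to 12424 CPM in in vivo hatched blastocysts. They summed to 1761 to 2128 CPM in IVF blastocysts and 2601 to 3783 CPM in in vivo blastocysts, and TTR and AFP among them were at 0 throughout. APOA1 made up most of the mean sum in in vivo hatched blastocysts (413 CPM in IVF hatched and 6514 CPM in in vivo hatched blastocysts). DAB2, which is on the hypoblast and the trophectoderm list, was on the other side, at 1376 CPM in IVF hatched and 931 CPM in in vivo hatched blastocysts. Of 19 tested hypoblast markers, 12 were called lower in IVF hatched than in in vivo hatched blastocysts, and 7 to 14 were called with 1 library left out. Trophectoderm markers, 15 genes of which HAND1 was at 0 in in vivo hatched blastocysts, summed to 26265 to 37089.7 CPM in IVF hatched and 23264 to 35942 CPM in in vivo hatched blastocysts, ranges that overlapped, with 1 of 14 tested called higher, a call lost in each fit with 1 library left out. In unhatched blastocysts they summed to 37445 to 42591 CPM after IVF and 26997 to 27033 CPM in vivo. KRT8 made up most of these sums (29777 CPM in IVF and 19840 CPM in in vivo blastocysts on average). Of the 14 tested, 1 was called higher after IVF and 1 lower there, beside 6.09% and 4.74% of all genes. Of 16 blood and immune markers, 7 had a count in IVF hatched and 9 in in vivo hatched blastocysts, with S100A8 and MPO at 0 in both and PTPRC at 0 in IVF hatched blastocysts. They summed to 125 to 171 CPM in IVF hatched and 6.86 to 22.1 CPM in in vivo hatched blastocysts. In unhatched blastocysts they summed to 128 to 181 CPM after IVF and 59.1 to 72.8 CPM in vivo. Nearly all of this sum after IVF was AIF1 (139 CPM in IVF hatched, 149 CPM in IVF blastocysts). Epiblast and pluripotency markers, 13 genes without NANOG, summed to 1043 to 1280 CPM in IVF hatched and 481 to 662 CPM in in vivo hatched blastocysts. POU5F1 made up most of these sums (893 and 428 CPM on average). In unhatched blastocysts they summed to 1168 to 1774 CPM after IVF and 911 to 938 CPM in vivo. Of 12 tested, 3 were called higher in IVF than in in vivo hatched blastocysts and 0 lower. The part of cell make-up in the results for the 6 genes was not tested.

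The remaining genes of each pathway were looked at in lists that leave the 6 genes out. Relative to 4-cell embryos, the median log2 fold change of all 16312 genes tested was -0.23 for IVF blastocysts and -0.24 for IVF hatched blastocysts, and it moved to -0.30 and -0.32 with another scaling (RLE) and to -0.50 and -0.55 with library totals alone. No called gene of the lists changed sign under either scaling. In IVF blastocysts 56.3% of all genes were called against 4-cell embryos, 25.7% higher and 30.6% lower, and in IVF hatched blastocysts 56.6%, 25.7% higher and 30.9% lower. With hatching in vivo, 6.96% of all genes were called higher and 7.39% lower. These shares were 6.96% and 4.88% for IVF against in vivo hatched blastocysts and 6.09% and 4.74% for the unhatched ones. For the difference of hatching changes they were 2.79% and 1.93%. A list count near such a share is no result about that list.

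Of 8 other genes of vitamin C synthesis and uptake, 4 rose and 1 fell from the 4-cell stage to IVF blastocysts, at a list median of 1.05. With RLE 3 rose and 1 fell, and with library totals alone 2 rose and 1 fell. SLC2A1, a carrier of glucose and oxidised vitamin C, was at 276 ± 14.1 CPM in IVF blastocysts and 11.4 ± 6.62 CPM in 4-cell embryos (4.90 ± 0.41, adjusted p = 4.42e-05). UGDH and AKR1A1, enzymes on the way to the gulonate that RGN uses, were already present in 4-cell embryos. UGDH averaged 50.3 ± 6.95 CPM in IVF blastocysts and 76.7 ± 80.2 CPM in 4-cell embryos, and AKR1A1 44.5 ± 9.54 CPM in IVF blastocysts and 18.7 ± 6.77 CPM in 4-cell embryos (1.45 ± 0.54, adjusted p = 0.0468, kept in 1 of 6 fits with 1 library left out). UGP2, which makes UDP-glucose, fell (-1.35 ± 0.43, adjusted p = 0.0245), a call lost without 4-cell library 2 or 3 or any single IVF blastocyst library, with 3 to 5 of the 8 genes called over these fits and that without 4-cell library 1.

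With hatching in vivo, where RGN fell, 4 of these 8 genes rose, at a list median of 1.06. AKR1A1 was at 337 ± 12.2 CPM in in vivo hatched blastocysts, against 21.1 ± 2.01 CPM in in vivo blastocysts (3.91 ± 0.51, adjusted p = 0.00118). SLC23A2, a carrier of ascorbate, was at 148 CPM in in vivo hatched and 13.6 CPM in in vivo blastocysts (3.32 ± 0.51, adjusted p = 0.00250). SLC2A3 (2.08 ± 0.51) and SLC2A1 (1.35 ± 0.29) rose too. Between 2 and 5 of the 8 were called with 1 library left out, with 2 called without in vivo blastocyst library 1 or in vivo hatched library 2. In IVF against in vivo hatched blastocysts 4 of 8 were lower: SLC23A2 (-2.92 ± 0.43, adjusted p = 0.00206), SLC2A1 (-1.52 ± 0.25), AKR1A1 (-2.15 ± 0.41) and UGDH (-0.87 ± 0.22, a call kept in 1 of 5 fits with 1 library left out). Before hatching, AKR1A1 (1.04 ± 0.43, adjusted p = 0.143) and UGDH (-0.35 ± 0.22, adjusted p = 0.335) were not called in IVF against in vivo blastocysts. For the difference of hatching changes, 3 of 8 were called lower: SLC23A2 (-3.37 ± 0.62), AKR1A1 (-3.19 ± 0.60) and SLC2A1 (-1.55 ± 0.37, kept in 2 of 10 fits). The AKR1A1 and SLC23A2 calls were kept in all 10 fits with 1 library left out, and the RGN difference has the opposite sign.

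Vitamin C is also a cofactor of dioxygenases that demethylate DNA and histones and hydroxylate proteins. Of 28 such genes, 6 rose and 8 fell from the 4-cell stage to IVF blastocysts, beside 25.7% and 30.6% of all genes. For the counts with hatching in vivo given below, the shares of all genes were 6.96% and 7.39%. TET1, which oxidises methylated cytosine, was at 69.9 CPM in IVF blastocysts and 7.78 CPM in 4-cell embryos (3.45 ± 0.55, adjusted p = 0.000944), and TET3 at 0.311 CPM in IVF blastocysts and 16.5 CPM in 4-cell embryos (-5.52 ± 0.94, adjusted p = 0.00136). With hatching in vivo 2 rose and 3 fell, among them EGLN3, an oxygen-sensing prolyl hydroxylase (-2.67 ± 0.39, adjusted p = 0.00200, called in all 4 fits with 1 library left out). Over those fits 2 to 7 of the 28 were called, and without in vivo blastocyst library 1 or 2 or in vivo hatched library 2 the count moved by over 1.5 times.

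Of 19 tested genes of the urea cycle and arginine use, 7 rose and 2 fell from the 4-cell stage to IVF blastocysts. ASS1, which makes argininosuccinate, had 0 counts in the 4-cell libraries, as ARG1 had, and 259 ± 89.9 CPM in IVF blastocysts. SRM, which makes spermidine downstream of ornithine, was at 2292 CPM in IVF blastocysts and 37.4 CPM in 4-cell embryos (6.30 ± 0.70, adjusted p = 0.000178). In IVF against in vivo hatched blastocysts, where ARG1 was higher, ASL, which releases arginine from argininosuccinate, was higher too (1.83 ± 0.23, adjusted p = 0.000741), as was ASS1 (1.28 ± 0.31, adjusted p = 0.0218). ARG2 was lower there (-1.68 ± 0.34, adjusted p = 0.0107), as was SLC25A15, the mitochondrial ornithine carrier (-1.21 ± 0.28, adjusted p = 0.0184). In all, 2 of 19 were higher and 4 lower, and the count of 6 fell to 1 without in vivo hatched library 2 and moved by over 1.5 times without IVF hatched library 1. With hatching in vivo, ASL (-2.40 ± 0.24, adjusted p = 0.000383) and ASS1 (-1.45 ± 0.33, adjusted p = 0.0152) were among 3 genes that fell, and SLC25A15 (1.87 ± 0.32) and AMD1 (1.53 ± 0.31) among 4 that rose. That count of 7 was 3 to 6 with 1 library left out, lowest among them without in vivo blastocyst library 1 or in vivo hatched library 2. ASL was also the 1 gene of the list called for the difference of hatching changes (2.54 ± 0.30, adjusted p = 0.00225, kept in all 10 fits).

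For RENBP, the list held 16 other enzymes and carriers of amino sugars and sialic acid. Of these, 8 rose and 4 fell from the 4-cell stage to IVF blastocysts, at a list median of 2.06. GNPDA1, which turns glucosamine phosphate into fructose phosphate, was at 661 CPM in IVF blastocysts and 2.14 CPM in 4-cell embryos (8.51 ± 0.47, adjusted p = 1.65e-05). AMDHD2, which deacetylates N-acetylglucosamine phosphate, was at 458 CPM in IVF blastocysts and 4.95 CPM in 4-cell embryos (6.84 ± 0.39). GFPT2, an isoform of the enzyme that opens hexosamine synthesis, was at 0.336 CPM in IVF blastocysts and 57.2 CPM in 4-cell embryos (-7.26 ± 0.95). In hatched blastocysts 2 of 16 were higher after IVF, GNPDA1 (1.23 ± 0.29, adjusted p = 0.0193) and GNPDA2 (0.91 ± 0.23, adjusted p = 0.0294), and the count was 0 to 4 with 1 library left out, moving by over 1.5 times whichever library it was. With hatching in vivo NAGK, which phosphorylates N-acetylglucosamine (-1.57 ± 0.33, adjusted p = 0.0108), and PGM3 (-0.99 ± 0.22, adjusted p = 0.0132) fell and GFPT2 and NPL rose, a count of 4 that was 1 or 2 whichever library was left out.

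Around SLC19A3, 8 of 15 tested genes of thiamine transport and use rose from the 4-cell stage to IVF blastocysts, at a list median of 1.94. TKT, a thiamine-dependent transketolase, was at 1891 CPM in IVF blastocysts and 192 CPM in 4-cell embryos (3.69 ± 0.69, adjusted p = 0.00218), and BCKDHB, a subunit of the branched-chain keto acid dehydrogenase, at 120.1 CPM in IVF blastocysts and 6.71 CPM in 4-cell embryos (4.36 ± 0.54). With hatching in vivo 4 of 16 fell: BCKDHB (-1.94 ± 0.32, adjusted p = 0.00332), SLC19A1 (-2.09 ± 0.36, adjusted p = 0.00415), HACL1 (-1.63 ± 0.33) and BCKDHA (-1.09 ± 0.26). The count was 2 without in vivo blastocyst library 1 or in vivo hatched library 2. In IVF against in vivo hatched blastocysts, where SLC19A3 was higher, SLC19A1 (3.09 ± 0.36, adjusted p = 0.000523), BCKDHB (1.77 ± 0.30) and HACL1 (adjusted p = 0.0200) were higher, with 2 or 3 called over the fits with 1 library left out. In blastocysts before hatching, SLC19A2 (-1.01 ± 0.23, adjusted p = 0.0191) and BCKDHA (-0.85 ± 0.23, adjusted p = 0.0398) were lower after IVF, and these 2 calls were 0 to 3 with 1 library left out, over 1.5 times apart from 2 in 4 of 5 such fits (all but the one without in vivo blastocyst library 2). For the difference of hatching changes BCKDHB (2.16 ± 0.40, kept in 10 of 10 fits), SLC19A1 (2.34 ± 0.45, 9 of 10), BCKDHA (1.49 ± 0.34, 4 of 10) and HACL1 (1.69 ± 0.42, 2 of 10) were called higher after IVF, and 1 to 4 of the 16 were called with 1 library left out. The count moved by over 1.5 times without IVF blastocyst library 1 or 3, IVF hatched library 1 or 2, in vivo blastocyst library 1 or in vivo hatched library 2.

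Beside BEST2, the list held 23 tested chloride and related channels. From the 4-cell stage to IVF blastocysts 7 rose and 5 fell, among them TTYH1, with 0 counts in 4-cell embryos and 8.83 CPM in IVF blastocysts, and LRRC8B, a volume-regulated channel subunit (0.887 CPM in IVF blastocysts, 46.3 CPM in 4-cell embryos). TTYH1 was the 1 gene called with hatching in vivo (-1.35 ± 0.39, adjusted p = 0.0402, a call kept in none of the 4 fits with 1 library left out). In IVF against in vivo hatched blastocysts 3 were higher and 1 lower, with TTYH1 first (2.28 ± 0.38, adjusted p = 0.00404), and 2 of the 23 were called without IVF hatched library 2 or 3 or in vivo hatched library 2.

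The liver genes outside the 6 went several ways. From the 4-cell stage to IVF blastocysts, 5 of 17 tested liver enzymes rose and 5 fell, beside 25.7% and 30.6% of all genes. Of 13 tested liver plasma proteins, 4 rose and 4 fell there. With hatching in vivo 2 enzymes rose and 1 fell, beside 6.96% and 7.39% of all genes. In IVF against in vivo hatched blastocysts 1 enzyme was lower and 0 higher, beside 4.88% and 6.96%. These last 2 enzyme counts moved by over 1.5 times without some single libraries. Of 12 tested liver plasma proteins, 3 rose with hatching in vivo, all apolipoproteins: APOC3 (4.09 ± 0.67, adjusted p = 0.00332), APOE (2.88 ± 0.56, adjusted p = 0.00716) and APOA1 (2.60 ± 0.76, adjusted p = 0.0412, kept in 2 of 4 fits with 1 library left out). In IVF against in vivo hatched blastocysts 4 of the 12 were lower, while 4 of the 6 genes described here were higher. APOA1 was at 413 CPM in IVF hatched and 6514 CPM in in vivo hatched blastocysts (-3.88 ± 0.68, adjusted p = 0.00523). That count of 4 fell to 2 without in vivo hatched library 2. HNF4A (-3.36 ± 0.79, adjusted p = 0.0198, kept in 2 of 5 fits) and NR5A2 (-4.24 ± 1.11, adjusted p = 0.0307, kept in 3 of 5 fits) were lower there too, 2 of 11 tested liver transcription factors.

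The genes most like each of the 6 over all 13 libraries were found by the root mean square difference of log2(CPM + 1), each gene centred on its mean and divided by its SD, among 11634 genes. For RGN they were TXNRD2 (0.080 SD), DAB2 (0.080 SD) and RHOV (0.082 SD). For GULO they were ABHD12 (0.053 SD), DNASE1L1 (0.058 SD) and BEST2 (0.069 SD), and for BEST2 they were ABHD12 (0.068 SD), GULO (0.069 SD) and KRT18 (0.072 SD). ARG1 was most like HEXA (0.072 SD), GLB1 (0.082 SD) and COASY (0.084 SD), and RENBP most like COASY (0.081 SD), GLB1 (0.085 SD) and ARG1 (0.087 SD). HEXA and GLB1 encode lysosomal hydrolases. SLC19A3 was most like PTGS2 (0.088 SD), BEST2 (0.102 SD) and RNF130 (0.102 SD). These likenesses rest on the step after the 4-cell stage: over the 10 later libraries alone, none of the 3 was kept for any of the 6 genes.

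In the Sscrofa11.1 genome, RGN lies on chromosome X from 41725660 to 41749736 and RENBP on chromosome X from 124662957 to 124670522. GULO lies on chromosome 14 (11299858 to 11332892), ARG1 on chromosome 1 (32006035 to 32028983), SLC19A3 on chromosome 15 (129071563 to 129096338) and BEST2 on chromosome 2 (66242820 to 66248908). No annotated gene overlaps any of them. HOOK2, 3149 bases before BEST2, also had 0 counts in the 4-cell libraries, and it averaged 65.4 to 76.6 CPM in the later groups. EPHX2, 6840 bases before GULO, had 5.59 ± 0.506 CPM in 4-cell embryos and 114 to 273 CPM on average later, and NAA10, 213 bases before RENBP, 3.42 ± 4.08 CPM and 39.5 to 52.3 CPM. On the other side of GULO and RENBP, CLU averaged 1.40 to 11.5 CPM in the later groups and HCFC1 4.56 to 9.22 CPM, against 1.43 and 39.9 CPM in 4-cell embryos. MED23 before ARG1 averaged 12.8 CPM in 4-cell embryos and 9.12 to 33.8 CPM later. JADE3, before RGN, averaged 76.2 CPM in 4-cell embryos and 19.8 to 27.6 CPM later. NDUFB11, after RGN, was at 34.7 CPM in 4-cell embryos, 81.4 CPM in IVF and 98.2 CPM in IVF hatched blastocysts. Like RGN it was highest in in vivo blastocysts (219 ± 57.2 CPM), with 101 CPM in in vivo hatched blastocysts. ASNA1, after BEST2, averaged 87.2 CPM in 4-cell embryos and 171 to 299 CPM later. CCL20, after SLC19A3, averaged at most 0.129 CPM. The level of the 6 genes was thus not shared by all of their neighbours.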

How the data were processed

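The authors deposited 1 gene table on Sscrofa11.1 with whole-number read counts and FPKM per library. Per the labels' protocols, mRNA was captured with oligo(dT) and sequenced as read pairs on an Illumina HiSeq. RSEM, StringTie 1.3.1, HISAT2, Bowtie2 and fastp 0.18.0 are listed, without roles, in the submitters' processing notes. The sources do not state how strand and reads shared between similar genes were handled. Of 39 value columns, 14 were not used: TPM, and the FPKM column numbered 1 of the in vivo hatched group, whose partner among the counts carries no number and is called unnumbered here.

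Counts were scaled to CPM by library total, and genes were tested with edgeR 4.0.16 in R 4.3.3 (TMM, edgeR's filter on low counts, quasi-likelihood test, Benjamini-Hochberg, adjusted p under 0.05). The 10 blastocyst and hatched libraries were fitted together, and the 9 IVF libraries for comparisons with 4-cell embryos. The fits were first tested on simulated counts. Standard errors were taken from the fold change and the F statistic. DESeq2 1.42.0 and other scalings, filters and sample sets were alternatives. The 6 genes, the lists and the tests were chosen with earlier results of these data known. Genes named are the 6, their paralogs and neighbours, up to 4 called genes of smallest p per list (up to 2 by level where none was called), the 3 most alike genes, and liver checks; OTC and the cell type markers named were picked after their values were seen. Gene positions are from RefSeq, where 28208 of 28232 genes matched by gene number.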

Additional observations from a re-analysis of the deposited data

Results flagged for a closer look

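The 2 genes RGN and RENBP are given here because their change with hatching differed between IVF and in vivo embryos in a test of that difference. For RGN the hatching change after IVF minus the hatching change in vivo was 2.414 on the log2 scale (edgeR, adjusted p = 0.0140). For RENBP it was 1.621 (edgeR, adjusted p = 0.0484). RGN kept its call in 10 of 10 fits with 1 library left out and RENBP in 1 of 10. Both genes are X-linked, and the part of the sex of the embryos in these differences was not tested.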

How the results depend on the processing

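The counts of called genes, of all genes and of the 6, moved by over 1.5 times under several alternatives, and the cause was not tested. For IVF against in vivo blastocysts (1681 genes, 1 of 6) DESeq2 called 3155 and 2, no filter on low counts 2749 and 2, and all 13 libraries in 1 fit 7 and 0. For the hatched groups (1839, 4 of 6) DESeq2 called 3177 genes, no filter 2850, all libraries in 1 fit 92 and 0 of 6, and the compared groups alone 2 of 6. For in vivo hatching (2228, 2 of 6) DESeq2 called 3737 genes, all libraries in 1 fit 101 and 0 of 6, and the compared groups alone 757 and 1 of 6. For IVF hatching (7 genes) the counts were 58 with DESeq2, 162 with no filter and 0 with all libraries. For the difference of hatching changes (732, 2 of 6) they were 1988 with DESeq2, 1855 with no filter, and 1 and 0 of 6 with all libraries.

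Leaving out 1 library gave 320 to 1757 genes and 0 to 1 of 6, 513 to 2068 and 2 to 3, 1064 to 2153 and 1 to 3, 4 to 7 and 0, and 333 to 969 and 1 to 2, in the order above. It gave 7622 to 11451 genes for IVF blastocysts and 7511 to 11531 for IVF hatched blastocysts against 4-cell embryos. A library left alone in its group was assumed to vary like the other groups. Fold changes of the 6 genes turned sign in 4 cases, all uncalled. SLC19A3 in IVF against in vivo blastocysts ranged from -0.34 to 0.10, above 0 without in vivo blastocyst library 1. GULO ranged from -0.54 to 0.0027 for in vivo hatching, above 0 without in vivo hatched library 2. For IVF hatching GULO ranged from -0.030 to 0.32, with -0.030 without IVF blastocyst library 3 and -0.013 without IVF hatched library 2.

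The replicate numbers did not pair the libraries: same-numbered libraries deviated together with correlations of -0.171 to 0.0324 over 19 pairs. The fit with a block also left out the unnumbered in vivo hatched library, so its results do not show the block alone. For the hatched groups the SLC19A3 change was 0.67 in that fit and 0.68 without that library and with no block. With the replicate number as a block, 1028 genes and 0 of 6 were called for IVF against in vivo blastocysts, 1145 and 2 for the hatched groups, 1146 for in vivo hatching and 347 for the difference of hatching changes. With library totals alone the median of all genes for that difference moved to -0.11. Normalised library sizes moved 3 of 24 levels by more than the SD, and the 18 levels rescaled from FPKM moved by less. That alternative was not run for in vivo hatched blastocysts. Changes of the 6 genes against 4-cell embryos are lower bounds and were not refitted.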
